A study of Mus musculus with 7 samples.

Results

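The immediate-early Egr and Nr4a transcription factors, with the Egr cofactors Nab1 and Nab2 and the activity-regulated gene Arc, form a group of 10 genes. It was followed through the mammary glands of both genotypes of the study, wild-type and PRA transgenic. The members were selected on the contrast between these genotypes, so their genotype differences are given below as a description, with no test. All non-control probes named for a member were taken, which gave 15 of the 56605 probes on the array, for 9 of the 10 genes. No probe on the array is named Nab1. RNA came from a single abdominal gland of nulliparous FVB females of 20 to 25 weeks at diestrus, with the lymph nodes cut out and 1 animal per array. The wild-type group held 3 animals, whose glands the labels call normal. The PRA transgenic group held 4 animals, which carry an additional A form of the progesterone receptor in a bigenic system, a GAL-4 gene under the CMV promoter and a PR-A gene under GAL-4 control. That promoter is not restricted to mammary epithelium, and the labels call these glands preneoplastic. Gland RNA carried Cy5, and Cy3 went to Universal Mouse Reference RNA, a pool of 11 cell lines that was hybridized to every array. The values below are log2 ratios of Cy5 to Cy3 where nothing else is said. The gland is a mixture of cell types, so fewer cells of a type and less RNA per cell cannot be told apart.

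Immediate-early genes are transcribed within minutes of a growth factor, hormone, calcium or stress signal, from factors that already wait in the cell. The signals run through ERK kinases to serum response factor and its Elk partners, which bind CArG boxes, and through cAMP to CREB, which binds cAMP response elements. The Egr proteins are zinc finger transcription factors that bind GC-rich sites. Nab1 and Nab2 bind to Egr proteins and restrain them, and Nab2 is itself switched on by Egr proteins. The Nr4a proteins are orphan nuclear receptors that act without a known hormone, alone on NBRE sites or, for Nr4a1 and Nr4a2, together with the retinoid X receptors. In many tissues both families are known to respond to growth factors, hormones and wounding.

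The arrays shared 1 slide, on which row 1 held only wild-type and row 2 only PRA transgenic samples, so the effects of row and of genotype cannot be told apart. Between 62.7% and 66.2% of probes were well above background in Cy5 on the wild-type arrays, and between 56.7% and 60.2% on the PRA transgenic arrays. The reference differed in the same way, with 53.2% to 54.0% and 47.2% to 50.6% of probes well above background in Cy3. Whether this had a part in any difference below was not tested. For that reason Cy3 differences over the member probes are given below, scaled and unscaled. Summed Cy5 levels of skeletal muscle markers (9 genes, 7 with a kept probe) ran from 9.61 to 16.11 on the log2 scale in wild-type and from 9.86 to 14.33 in PRA transgenic glands, the highest being wild-type replicate 3. T cell markers (6 genes with a probe) stood at 12.86 in wild-type replicate 1 and between 10.79 and 11.17 elsewhere, and B cell markers at 12.07 and between 8.31 and 9.04. Luminal epithelial markers (7 genes) spanned 15.90 to 16.56 in wild-type and 15.26 to 16.17 in PRA transgenic glands, and basal markers (5 genes) 14.46 to 15 and 14.64 to 14.77. Fibroblast markers (5 genes) ran from 17.07 to 17.81 and from 17.05 to 17.66, and white adipocyte markers (5 genes) from 18.38 to 19.06 and from 17.89 to 18.84. All luminal, basal and adipocyte markers had a kept probe. By the mean log2 ratio, 9 of 9 muscle, 6 of 6 T cell and 5 of 5 B cell markers (4 with a kept probe) were lower in PRA transgenic glands. So were 5 of 5 fibroblast, 5 of 7 luminal and 4 of 6 macrophage markers. The counts were 2 of 8 for Schwann cell, 1 of 5 for basal, 1 of 4 for endothelial, 1 of 3 for erythroid and 0 of 5 for adipocyte markers. Of all probes tested 45.9% were lower. The part of these cell types in the members' differences was not tested.

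Egr1, a zinc finger factor induced rapidly in many cell types, has 1 probe (A_51_P367866, chromosome 18 of mm9, 35024395 to 35024454). Its log2 ratio was -2.30, -2.11 and -0.81 in wild-type replicates 1, 2 and 3, and -3.77, -2.62, -2.83 and -3.80 in PRA transgenic replicates 1 to 4. Every PRA transgenic gland lay below every wild-type gland, and wild-type replicate 3 stood well above the other two. The mean was -1.74 ± 0.81 (SD, n = 3) for the wild-type and -3.25 ± 0.61 (SD, n = 4) for the transgenic glands, a difference of -1.51 (standard error 0.46) or 2.86-fold. In Cy5 intensity Egr1 read 1835, 2391 and 4579 in wild-type and 638, 1293, 1095 and 635 in PRA transgenic glands.

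Egr2, which in Schwann cells controls myelination and in lymphocytes restrains activation, has 1 probe (A_51_P173043, chromosome 10 of mm9, 67004758 to 67004817). Wild-type glands gave 1.74, -0.02 and 1.79, and PRA transgenic glands -0.37, -0.40, 0.68 and -0.98. The genotypes overlapped, because wild-type replicate 2 was below PRA transgenic replicate 3. The means were 1.17 ± 1.03 (SD, n = 3) and -0.27 ± 0.69 (SD, n = 4), a difference of -1.44 (standard error 0.55). Summed Schwann cell markers (8 genes) ran from 13.75 to 14.54 in wild-type and from 13.63 to 14.41 in PRA transgenic glands.

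Egr3, a relative that is often induced together with Egr1, has 3 probes, and they did not read alike. The probe standing for the gene (A_55_P2787986, chromosome 14 of mm9, 70482361 to 70482420) gave -0.40, -0.95 and 0.18 in wild-type and -1.82, -1.69, -0.97 and -1.86 in PRA transgenic glands. The groups did not overlap, but only 0.026 separated wild-type replicate 2 from PRA transgenic replicate 3. The difference of the means was -1.20 (standard error 0.32), or 2.29-fold. A second probe (A_52_P440836, 70481979 to 70482038) gave -0.60, -1.26 and 0.65 against -1.88, -2.02, -1.53 and -2.28, a difference of -1.52 (standard error 0.43). Its Cy5 signal was well above background on 3 of 3 wild-type and 3 of 4 PRA transgenic arrays. That probe was thus kept through the wild-type group only, where it was higher. The last probe (A_51_P437198), which the array design assigns to another transcript and which lies at 70478827 to 70478886, stayed below the above-background limit on all 7 arrays in both channels. Egr4, known mainly from the nervous system, has 1 probe (A_51_P270426, chromosome 6, 85461153 to 85461212), which likewise never came well above background.

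**Figure D1:**
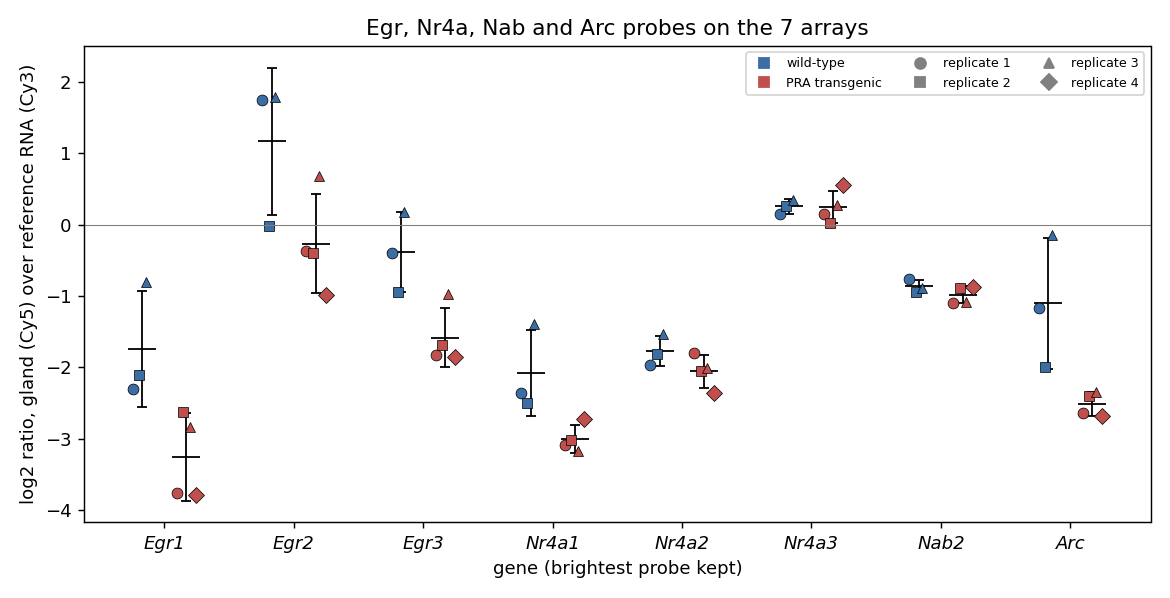
Log2 ratio of gland (Cy5) over reference RNA (Cy3), vertical axis, for the brightest kept probe of 8 genes, horizontal axis. Points are the 3 wild-type (blue) and 4 PRA transgenic (red) arrays, shaped by replicate number, and bars give the mean and SD. In Egr1, Egr3, Nr4a1 and Arc all red points lie below all blue points, while in Nr4a3 and Nab2 the colours mix.

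Nab2, the corepressor that Egr proteins induce, differed little between the genotypes. Its kept probe (A_55_P2071059, chromosome 10 of mm9, 127098009 to 127098068) gave -0.76, -0.94 and -0.89 in wild-type and -1.09, -0.89, -1.09 and -0.87 in PRA transgenic glands, a difference of -0.12 (standard error 0.12). The Cy5 intensity lay between 1419 and 2056 on all 7 arrays, and the spread within each genotype was about as wide as the gap between them. The second Nab2 probe (A_55_P2138966, 127101413 to 127101472) was well above background in Cy5 on 2 wild-type arrays and on none of the PRA transgenic arrays, so it was not kept.

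Nr4a1, also known as Nur77, is the Nr4a receptor most tied to metabolism and to T cell receptor signals. Its probe (A_51_P239654, chromosome 15 of mm9, 101105071 to 101105130) gave -2.36, -2.50 and -1.40 in wild-type and -3.09, -3.01, -3.17 and -2.72 in PRA transgenic glands. The genotypes did not overlap, and wild-type replicate 3 was again the highest gland. The means were -2.08 ± 0.60 (SD, n = 3) and -3.0 ± 0.20 (SD, n = 4), a difference of -0.92 (standard error 0.28) or 1.89-fold. Cy5 intensity was 1020, 1059 and 1909 in wild-type and 607, 560, 536 and 744 in PRA transgenic glands.

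Nr4a2, also called Nurr1 and best known from dopamine neurons, has a pair of probes on chromosome 2 of mm9. The brighter one (A_52_P494622, 56960699 to 56960758) gave -1.96, -1.81 and -1.54 in wild-type and -1.80, -2.06, -2.01 and -2.36 in PRA transgenic glands, a difference of -0.28 (standard error 0.17) with overlapping groups. The other (A_66_P118213, 56960000 to 56960059) gave -2.18, -1.91 and -2.16 against -1.84, -2.01, -1.80 and -2.26, a difference of 0.10 (standard error 0.15) in the opposite direction. So the probes of Nr4a2 do not settle a direction.

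Nr4a3, also called Nor1, has 3 probes on chromosome 4 of mm9, of which 1 was kept (A_66_P103105, 48064521 to 48064580). It gave 0.15, 0.26 and 0.35 in wild-type and 0.14, 0.03, 0.28 and 0.55 in PRA transgenic glands. The groups overlapped, and the difference of the means was -0.0044 (standard error 0.15). The remaining probes (A_66_P132423 and A_51_P128397) never came well above background in either channel, and no fold is given for them.

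The 250 bases before the annotated start of Nr4a1 are shown because this member is one of those lower in every PRA transgenic gland, and shorter stretches of Egr2, Nr4a2 and Nr4a3 because these differed less clearly or not at all. Sequences are from RefSeq on GRCm38.p6, where entries for 7 of the 10 genes were searched, so that the counts below do not cover Egr1, Egr3 and Arc. Capitals mark the short form of the cAMP response element, TGACG, read on either strand and so also as CGTCA, and in Egr2 the CArG box. Coordinates are chr15:101266596-101266845 (plus strand) for Nr4a1, chr10:67537793-67537822 (plus strand) for Egr2, chr2:57124120-57124149 (minus strand) for Nr4a2 and chr4:48045084-48045113 (plus strand) for Nr4a3.
Nr4a1: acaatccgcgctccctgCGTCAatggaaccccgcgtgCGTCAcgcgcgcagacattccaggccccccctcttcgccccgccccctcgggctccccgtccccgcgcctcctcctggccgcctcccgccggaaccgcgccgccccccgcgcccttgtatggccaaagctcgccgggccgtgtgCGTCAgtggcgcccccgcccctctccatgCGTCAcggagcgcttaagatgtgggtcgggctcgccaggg
Egr2: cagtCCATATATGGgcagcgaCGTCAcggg
Nr4a2: cgCGTCAcggagcccggccgggcTGACGgg
Nr4a3: tcccatgtCGTCAcatTGACGtctcgcatt
The short element occurred 4 times in the 250 bases before the start of each of the 3 Nr4a genes. Of all 32851 promoters 17.8% held it at least once and 0.688% at least 3 times. Egr2 held 2 short elements and 1 CArG box before 3 of its 5 annotated starts, which lie close together, and a CArG box alone before 1 more, against 1.47% of all promoters with a CArG box. Egr4 held 2 short elements, Nab1 held 1 and Nab2 none. The full element TGACGTCA, which contains the short element on both strands, was in none of the 7 members searched and in 1.55% of all. The Egr element GCGTGGGCG was found on either strand 2 times before the start of Nab1 and in 0.536% of all promoters. The NBRE, AAAGGTCA, was in none of the 7 members searched and in 1.34% of all. A match is a description of letters only.

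Arc, a cytoskeleton-associated gene of neurons that Egr proteins can switch on, is included as a gene that responds in the same window. Its probe (A_51_P503494, chromosome 15 of mm9, 74499597 to 74499656) gave -1.17, -1.99 and -0.15 in wild-type and -2.64, -2.40, -2.34 and -2.68 in PRA transgenic glands. Every PRA transgenic gland was below every wild-type gland, and wild-type replicate 3 was the highest. The means were -1.10 ± 0.92 (SD, n = 3) and -2.52 ± 0.17 (SD, n = 4), a difference of -1.41 (standard error 0.39) or 2.66-fold. The signal was low, with Cy5 intensities of 136, 83.6 and 265 in wild-type and 42.3, 43.2, 51.1 and 41.5 in PRA transgenic glands.

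The ratios could in principle move through the reference as well as through the gland. Scaled to the 75th percentile of each array, Cy3 of the kept member probes differed between the genotypes by -0.08 to 0.09. That scaling removes any shift common to a whole array. Unscaled, Cy3 was lower on the PRA transgenic arrays for every kept member probe, from -0.29 for Egr3 to -0.13 for Egr1. Cy5 alone, scaled in the same way, gave -1.44 for Egr1, -1.44 for Egr2, -1.29 for Egr3, -0.86 for Nr4a1 and -1.50 for Arc, close to the ratios. Nr4a2, Nr4a3 and Nab2 gave -0.24, -0.07 and -0.06 in Cy5 alone.

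**Figure D2:**
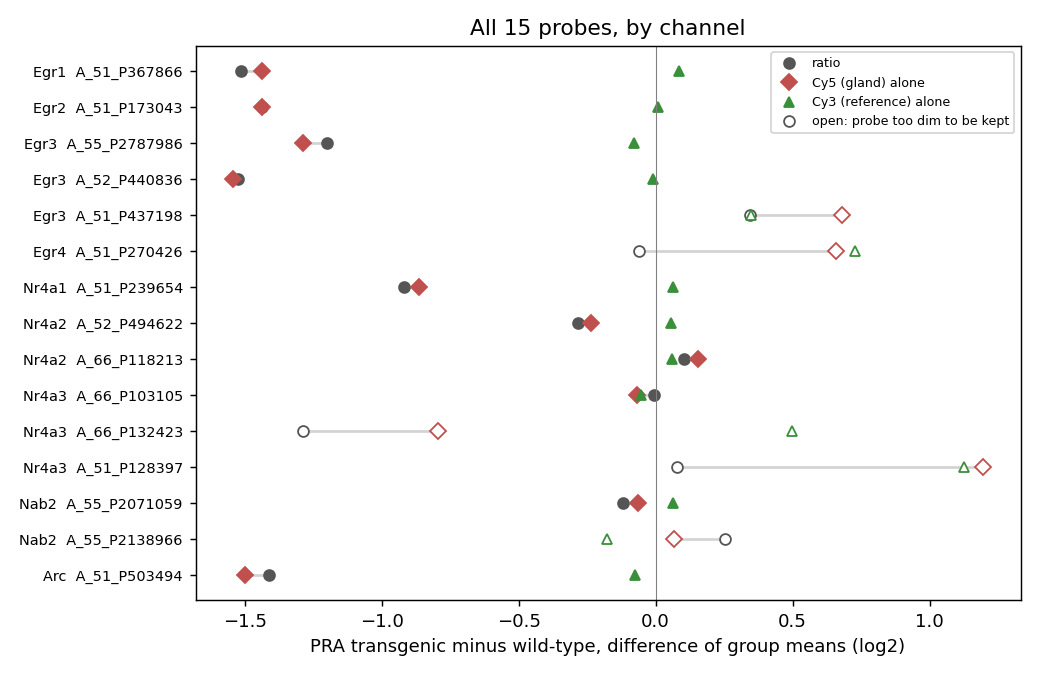
Difference of group means, PRA transgenic minus wild-type, on the log2 scale, for all 15 probes (vertical axis), as a ratio (circles), in Cy5 of the gland alone (diamonds) and in Cy3 of the reference alone (triangles), single channels scaled to their 75th percentile. Filled symbols are the 10 kept probes and open symbols the 5 too dim to be kept. For the kept probes the triangles stay between -0.08 and 0.09 while the ratios reach -1.52.

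Among the 8 genes with a kept probe, 4 were lower in every PRA transgenic gland than in every wild-type gland (Egr1, Egr3, Nr4a1 and Arc) and none was higher. Over all 34288 probes tested 4.51% were lower in this sense and 5.41% higher. The median log2 fold change was -1.06 for the members and 0.02 for all probes. By the probe standing for each gene all 8 were below 0, compared with 45.9% of all probes. Of these, Nr4a3 stood at only -0.0044, and the other kept Nr4a2 probe read 0.10. Because the members were selected on this contrast, nothing is read from the gap between members and all probes.

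By log2 ratio of the probe standing for each gene, wild-type replicate 3 was the highest array for Egr1, Egr2, Egr3, Nr4a1, Nr4a2 and Arc. In the other kept Nr4a2 probe it read -2.16, and PRA transgenic replicate 3 was highest at -1.80. In Cy5 intensity, wild-type replicate 1 was highest for Egr2 (2487 against 2469), and wild-type replicate 2 for Nr4a2 (106 against 96.8). Wild-type replicate 3 also had the highest summed level of muscle and of basal epithelial markers. As a description over the 7 arrays, the mean Cy5 level of the basal markers had r = 0.92 with Egr1, the highest of the marker lists. That of the erythroid markers had r = 0.78, both as deviations from the genotype mean. By log2 ratio, 3.06% of 16800 other genes had r above 0.9 with Egr1. For muscle markers r was 0.04, and for the other 8 marker lists it ran from -0.74 to 0.08. Without wild-type replicate 3 the difference was -1.05 for Egr1, -1.13 for Egr2, -0.92 for Egr3, -0.57 for Nr4a1 and -0.94 for Arc. The direction stayed the same for these 5 genes, and the size of Nr4a1 and Arc shrank by more than 1.5 times on the log2 scale. Leaving out wild-type replicate 2 instead, the lowest wild-type array for 4 of these 5 genes, gave -1.70, -2.03, -1.48, -1.12 and -1.86 in the same order.

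**Figure D3:**
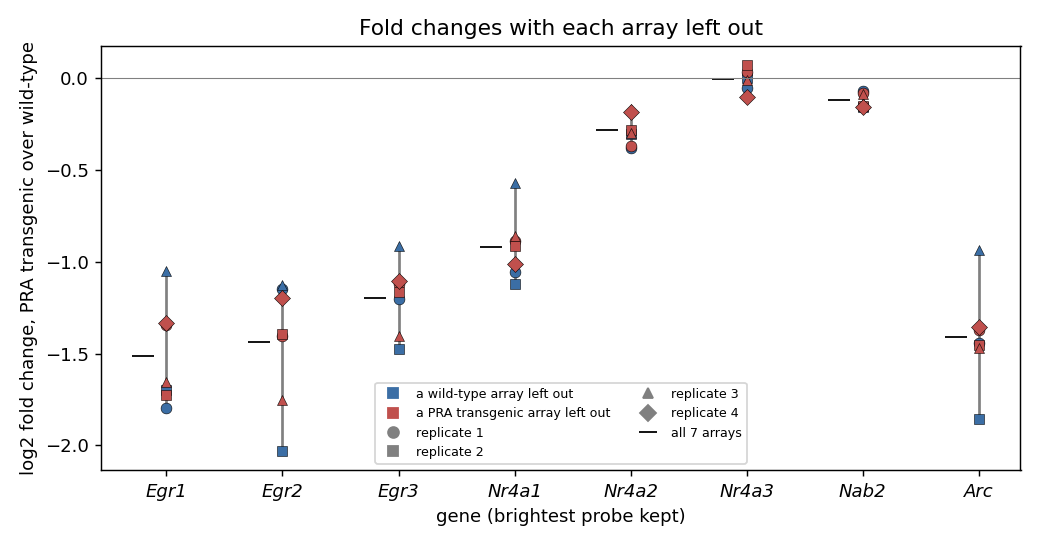
Log2 fold change of each gene (vertical axis) with 1 array left out at a time. Blue points leave out a wild-type array and red points a PRA transgenic array, shaped by replicate number, and the dash gives the value from all 7 arrays. The blue triangle, without wild-type replicate 3, is the smallest difference for Egr1, Egr2, Egr3, Nr4a1 and Arc, and all points of these genes stay below 0.

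Variation among animals of the same genotype was not used to select the members. To ask whether they moved together there, each array was expressed as its deviation from its genotype mean. Egr1 deviated by -0.56, -0.37 and 0.93 in wild-type and by -0.51, 0.63, 0.42 and -0.54 in PRA transgenic glands. Arc deviated by -0.07, -0.89 and 0.95 and by -0.13, 0.12, 0.17 and -0.16. Over the 7 arrays the correlation with Egr1 was highest for Arc (Pearson r = 0.74, Spearman rho = 0.64) and Egr3 (r = 0.72, rho = 0.39). It was 0.53 for Nr4a1, 0.50 for Nr4a2 and 0.49 for Egr2, and -0.15 and -0.11 for Nr4a3 and Nab2. In a two-sided exact permutation test within genotype over 144 arrangements, the lowest p of the 7 relations was 0.0764, for Arc, with a Benjamini-Hochberg adjusted p of 0.535. The corresponding exact permutation p was 0.174 for Egr3, and for Spearman's rho the lowest was 0.25, adjusted 0.729. None passed at 0.05, and the smallest p the design allows is 0.00694.

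The 2 arrays farthest from the median of Egr1 were wild-type replicate 3 and PRA transgenic replicate 2. Without them r was 0.81 for Egr3, 0.55 for Egr2, 0.39 for Arc, 0.29 for Nr4a2 and -0.18 for Nr4a1. Deviations were still taken from the genotype means of all 7 arrays, so these r are not purely within genotype. On this measure the positive relation to Nr4a1 rested on those 2 arrays. Among all pairs of members, Egr2 and Egr3 were the most alike, with r = 0.90 as a description over the 7 arrays.

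**Figure D4:**
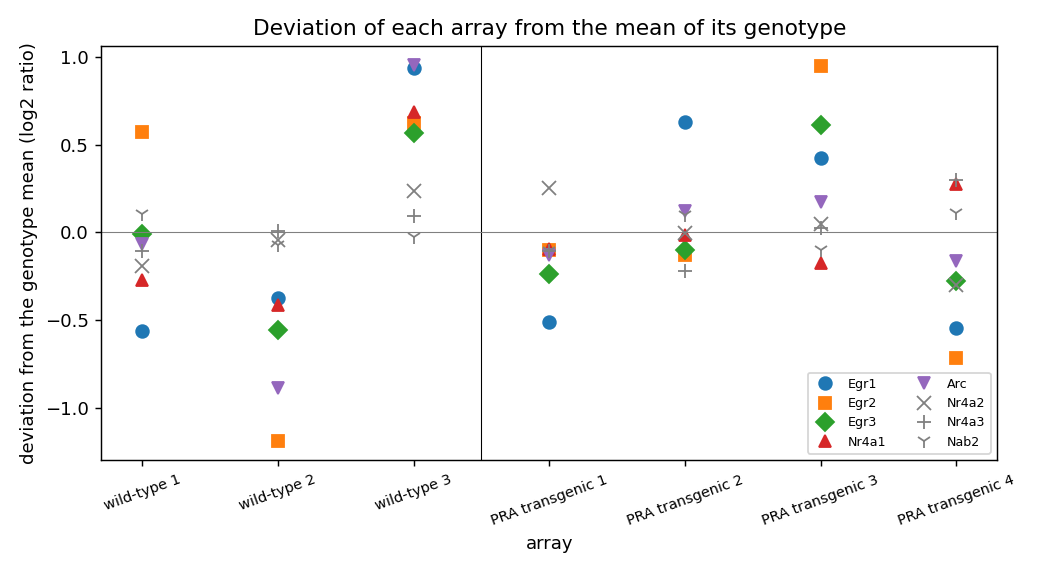
Deviation of each array (horizontal axis) from the mean of its genotype in log2 ratio (vertical axis) for 8 genes. Coloured symbols are Egr1, Egr2, Egr3, Nr4a1 and Arc, and grey symbols Nr4a2, Nr4a3 and Nab2. Wild-type replicate 3 is above its genotype mean for all coloured genes, and PRA transgenic replicate 1 is below that of its own genotype for all of them. Replicate 4 is the lowest PRA transgenic array for Egr1, Egr2, Egr3 and Arc and the highest for Nr4a1.

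Many genes followed Egr1 more closely than any member did. Of 16800 other genes with a kept probe and a RefSeq name, Arc ranked 1811 and Egr3 2020 by this correlation. The 5 genes nearest to Egr1 were Alg6, Zfp428, Twnk, Atat1 and Thoc7, with r from 0.999 down to 0.993 and genotype differences between 0.02 and 0.42. Alg6 acts in protein glycosylation, Twnk is the mitochondrial DNA helicase and Atat1 acetylates tubulin. For Nr4a1 the nearest were Zfand1, Haus4, Pfkm, Gatm and Prdm14, with r from 0.993 to 0.983. Pfkm is the muscle form of phosphofructokinase. With 7 arrays and so many genes these values are a description only.

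The immediate-early genes that are not members were looked at as a list of 34, which includes the Fos and Jun families, dual-specificity phosphatases and Klf factors. None passed an adjusted p under 0.05 in limma with Benjamini-Hochberg adjustment over all probes, which 0.0117% of all probes did, and the lowest was 0.272. Their median log2 fold change was -0.49, and 28 of 34 were below 0, compared with 45.9% of all probes. At an unadjusted p under 0.05, 13 were lower (38.2%) and 1 higher, where 4.48% of all probes were lower and 4.54% higher. With the methods' t-test 7 were lower and 2 higher, and the share of all probes under that test is not given here. Without wild-type replicate 3 the count was 7 lower and 1 higher, beside 1394 and 1172 of all 34288 probes. Without wild-type replicate 1 it was 9 and 1, beside 1507 and 1321 of all probes. The study's own gene tables from these arrays already hold 6 of the 34, so the list is not independent evidence of a direction. Among the other 28, 8 were lower and 1 higher, with a median of -0.43.

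Junb, an AP-1 subunit, gave -1.08, -0.91 and -0.63 in wild-type and -1.67, -1.37, -1.80 and -1.39 in PRA transgenic glands, a difference of -0.69 (standard error 0.17, adjusted p = 0.391 from limma). Its groups did not overlap. Zfp36, an RNA-binding protein that speeds mRNA decay, differed by -0.55 (standard error 0.18). Dusp6, a phosphatase of ERK that ERK signaling induces, differed by -0.50 (standard error 0.15). Neither overlapped between the genotypes. The study's tables also hold Junb and Zfp36. Nfil3, a basic leucine zipper repressor, went the other way. It gave -1.82, -1.59 and -2.28 in wild-type and -0.40, -0.79, -0.70 and -0.93 in PRA transgenic glands, a difference of 1.20 (standard error 0.20, adjusted p = 0.272 from limma). In Cy5 alone the value for Nfil3 was 1.19.

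**Figure D5:**
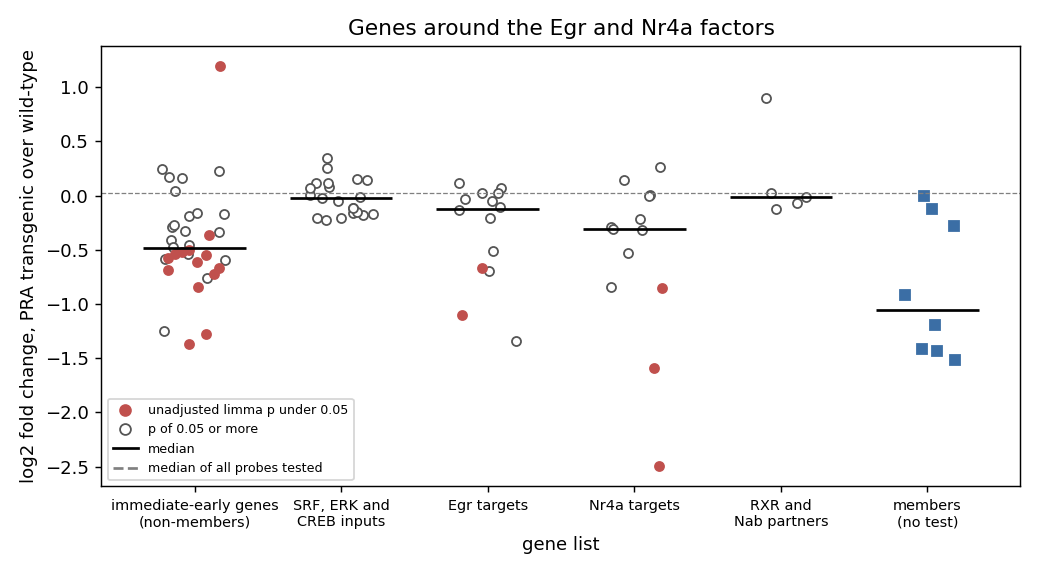
Log2 fold change, PRA transgenic over wild-type (vertical axis), of the genes in each list (horizontal axis), 1 point per gene by its brightest kept probe. Red points have an unadjusted limma p under 0.05, black lines are list medians, the dashed line is the median of all probes, and blue squares are the members, with no test. The immediate-early list is centred at -0.49 and the list of serum response factor, ERK and CREB genes at -0.03.

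The genes that carry the signal to the members had a median near that of all probes. Of 21 genes for serum response factor, its partners and the ERK and CREB pathways, none had an unadjusted p under 0.05 in limma in either direction. Of all probes 4.48% were lower and 4.54% higher at that limit. The median of the list was -0.03. The methods' t-test gave 1 higher, and the share of all probes under that test is not given here. Srf itself differed by -0.11 (standard error 0.15), Elk1 by 0.08 (0.21), Elk3 by -0.16 (0.15) and Elk4 by -0.18 (0.12). These are RNA levels, while the ERK, Elk and CREB proteins are switched on mainly by phosphorylation.

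Downstream, 14 of 15 genes known as Egr targets were tested, with a median of -0.12. At an unadjusted p under 0.05, 2 of the 14 were lower (14.3%) and none higher, beside the 4.48% and 4.54% of all probes. Fasl, the ligand of the Fas death receptor, differed by -1.10 (standard error 0.25, adjusted p = 0.351 from limma) without overlap, but its reference never came well above background, its gland signal did so on 5 of 7 arrays, and Cy5 alone gave -0.67. Its highest ratio, 3.01, was in wild-type replicate 1, the array with the highest T cell markers, and their part was not tested. The other was Cd44, a hyaluronan receptor, at -0.67 with overlapping groups, which the study's tables also hold and which is named after its value was seen. Without wild-type replicate 3 the count was 4 lower, beside 1394 of all 34288 probes. Of 14 genes known as Nr4a targets 13 were tested, with a median of -0.31, and 3 of the 13 were lower (23.1%) and none higher, beside the same shares of all probes. They are named after their values were seen: Spp1, which codes for osteopontin, at -2.50, Fbp2, the muscle fructose bisphosphatase, at -1.59, and Tox, a T cell factor, at -0.85. All had overlapping groups. The methods' t-test called none, and the share of all probes under that test is not given here. For Tox the gland signal was well above background on 5 of 7 arrays. Tox and Fasl were thus kept through 1 genotype only, and their place in these counts may depend on that filter. For Fbp2 the reference was well above background on 1 of 7 arrays, Cy3 alone differed by 1.23 and Cy5 alone by -0.37, and the muscle markers given above had their highest sum in the same array as its highest ratio, wild-type replicate 3 at 4.66, and their part was not tested.

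Among the dimer partners of the Nr4a receptors, Rxra differed by -0.07 (standard error 0.21), Rxrb by 0.03 (0.12) and Rxrg by 0.90 (0.41, unadjusted p = 0.0613 and adjusted p = 0.581 from limma). The reference held no Rxrg signal well above background, and in Cy5 alone its difference was 0.10. With the Nab-bound remodelers Chd3 and Chd4 the list has 5 genes and a median of -0.01. None had an unadjusted p under 0.05 in limma, beside 4.48% lower and 4.54% higher of all probes.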

How the data were processed

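Gland RNA was measured on 7 arrays, 3 wild-type and 4 PRA transgenic, grouped by the sample labels. The authors deposited, per array, scanner output of Agilent Feature Extraction 12.0, as the submitters' processing notes give it, with processed intensity values that were background-subtracted and dye-normalized. A series-wide table of log2 ratios was deposited too, found here to be the same ratios centred on the 7-array median of each probe (scale and centring found from the data, column medians -0.0152 to 0.0269). From the intensities log2(Cy5/Cy3) was computed, control and outlier spots were left out and spots of a probe averaged. No spot was saturated. Probes were kept if Feature Extraction marked Cy5 as well above background throughout 1 genotype or both (34288 of 56605). The number of arrays limits the precision. Genes were named through RefSeq tables of GRCm38.p6 (32994 probes by accession, 10224 by symbol, 520 by older symbol, 12867 with the name in the file), and probe positions were taken from the files (mm9).

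The genotypes were compared in R 4.3.3 by limma 3.58.1 (lmFit, then eBayes), and p-values were adjusted by Benjamini-Hochberg over all kept probes. The brightest kept probe in Cy5 stood for a gene. The fit was first tested on simulated data. Members, lists and tests were chosen with earlier results of these data known. Named were all members with every probe, from each list up to 3 falls and 3 rises with an unadjusted p under 0.05 and genotypes without overlap, the Rxr, Srf and Elk genes, and the 5 genes nearest Egr1 and Nr4a1. Alternatives were normexp (offset 50) with loess, the series table, no filter and a stricter filter, Cy5 alone, quantile normalization, the median over probes, the methods' t-test, the replicate block and each array left out. The list counts without wild-type replicate 1 or 3, and without genes the study had picked, were added after seeing the data. Promoters were searched with Python 3.11.15. With 1 slide and 1 scan, neither could be fitted as a block.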

Additional observations from a re-analysis of the deposited data

Results flagged for a closer look

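In the 4 PRA transgenic arrays 3 marker sums had 1 array far from the others, by the gap to the nearest array over the whole range. The ratio was 0.836 for skeletal muscle, where replicate 4 was high at 14.33, 0.911 for macrophages, where replicate 4 was high at 14.82, and 0.879 for erythroid cells, where replicate 4 was low at 16.15. Chance puts about 1 in 20 such groups past the limit used, or 1.05 of the 21 examined, and none of the 10 kept member probes passed it.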

How the results depend on the processing

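The number of probes at an adjusted p under 0.05 was 4, and it was 15 with no filter on dim probes, 1 with the methods' t-test and between 1 and 12 with each array left out, with 2 without wild-type replicate 3, 1 without PRA transgenic replicate 3 and 12 without PRA transgenic replicate 4. The replicate block gave 0. It drops PRA transgenic replicate 4, which has no wild-type partner, and gave -1.33 for Egr1. Arrays of the same number shared no clear deviation (r = 0.10, -0.30 and 0.04), so the numbers were not taken as a pairing. The cause of these shifts was not tested. The number of members lower in every PRA transgenic array was 4 and ranged from 3 to 5. With normexp and loess it was 3, and the differences of Egr3 and Arc were -0.77 and -0.93. Over the alternatives the median difference of the members ranged from -1.30 to -0.74, Egr1 from -1.80 to -1.05, Nr4a1 from -1.12 to -0.57 and Nr4a3 from -0.10 to 0.07, so Nr4a3 has no direction. The median correlation with Egr1 within genotype was 0.50 and ranged from 0.1495 to 0.6008 with each array left out, the lowest without wild-type replicate 3, and no relation and no listed gene passed at an adjusted p under 0.05 under any alternative run. With 3 and 4 animals, 1 slide and slide row tied to genotype, these values describe the 7 glands. Dim members (Egr4, 1 probe of Egr3, 2 of Nr4a3 and 1 of Nab2) have no measured difference.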
